A study of Mus musculus with 12 samples.

Results

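Mouse induced pluripotent stem (iPS) cells derived with human Nanog (hNanog iPS, 3 samples) were compared with mouse embryonic stem (ES) cells (3 samples). These 6 arrays belong to a set of 12 Illumina bead arrays, which also holds iPS cells derived with mouse Nanog (mNanog iPS, 3 samples) and neural stem cells that lack Nanog (NS, 3 samples). The strain given for every sample is E14Tg2A (129), the name of an ES line from 129 mice. The hNanog iPS, mNanog iPS and ES cells were all grown in N2B27, a serum-free medium, with LIF, the GSK3 inhibitor CHIR99021 at 3 µM and the MEK inhibitor PD0325901 at 1 µM. How the NS cells were grown is not stated in the labels. Probes were taken where the detection p-value was under 0.01 on at least 3 of the 6 hNanog iPS and ES arrays, which gave 15137 of 45281 probes, with gene symbols for 8597 genes. At the border of this rule, the 1097 probes detected on exactly 3 arrays had a median level of 5.52 (log2 intensity), and the 915 left out with 2 arrays a median of 5.29. The labels do not say which cells were reprogrammed, which other factors were used, or whether replicates are separate clones, cultures or RNA preparations, so the p-values reflect the spread among these arrays alone, which may be technical. The form of Nanog, the clone and the history of reprogramming cannot be told apart.

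Nanog is a homeodomain transcription factor that works with Pou5f1 and Sox2 to hold the pluripotent state and is needed for the last step of reprogramming to iPS cells. In LIF with a GSK3 inhibitor and a MEK inhibitor, which blocks FGF/ERK signalling, mouse pluripotent cells resemble the naive epiblast of the blastocyst. A small share of such cells at a time passes through a state that expresses genes of the 2-cell embryo.

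Both groups showed the markers of pluripotent cells. Of 11 pluripotent markers, including Zfp42, Esrrb and Dppa5a, 11 were detected on every array of hNanog iPS and of ES, with summed log2 levels of 122.8 to 123.6 in hNanog iPS and 123.4 to 123.9 in ES. Of 11 neural stem markers with a probe, none was detected on all 3 arrays of either group, and their summed level was 51.4 to 52.5 in hNanog iPS, 51.9 to 55.4 in ES and 123.5 to 124.5 in NS. Fibroblast markers summed to 24.2 to 24.8 in hNanog iPS and 24.5 to 24.9 in ES, with 1 of 5 detected throughout each group. Trophectoderm markers were lower in hNanog iPS (33.5 to 34.1) than in ES (37.2 to 37.8). Primitive endoderm markers summed to 31.3 to 32 in hNanog iPS and 30.1 to 30.7 in ES. Astrocyte and oligodendrocyte markers summed to 14.3 to 15.6 and 16 to 16.6, and neuronal markers to 27.1 to 27.3 and 27. The pluripotent markers do not include Nanog or Dppa3, which are given below. Mean signals ranged from 319 to 519 in hNanog iPS and from 317.5 to 531 in ES. The arrays fell into brighter ones (2 in hNanog iPS, 1 in ES) and dimmer ones (1 in hNanog iPS, 2 in ES), and the labels give no reason for this. Across probes, which are not independent replicates, hNanog iPS arrays correlated at 0.962 to 0.971 with ES arrays, 0.975 to 0.984 with mNanog iPS arrays and 0.787 to 0.793 with NS arrays, against 0.991 to 0.996 within hNanog iPS and 0.989 to 0.993 within ES.

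Many single genes differed between hNanog iPS and ES cells. In limma's moderated test with Benjamini-Hochberg adjustment at 0.05, 4595 probes (30.4%) changed, of which 2323 (15.3%) were higher and 2272 (15%) lower in hNanog iPS. Most of these differences were small: 754 probes (4.98%) changed by at least 2-fold, 451 (2.98%) higher and 303 (2%) lower. With 1 probe a gene, 1436 of 8597 genes (16.7%) were higher and 1438 (16.7%) lower, and these shares are the background for the gene lists below. On-or-off differences were fewer, with 181 probes detected on all 3 hNanog iPS arrays and no ES array, and 119 the other way round. With brightness as a block 5228 probes changed. Within the brighter arrays 3319 changed and within the dimmer arrays 1737; in these a group with 1 array is assumed to vary like the groups with several. With median scaling in place of quantile normalization 814 probes changed, 636 higher and 178 lower, and the median of all tested probes moved to 0.199 from -0.012.

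Nanog itself was read by a pair of probes, both lower in hNanog iPS. At ILMN_1245732, log2 intensities were 7.22, 7.14 and 6.87 in hNanog iPS and 11.65, 11.68 and 11.51 in ES, a difference of -4.54 (SE 0.12, adjusted p = 1.23e-10). At ILMN_2706623, they were 11.07, 11.04 and 10.98 in hNanog iPS and 13.15, 13.13 and 12.83 in ES, a difference of -2.01 (SE 0.13, adjusted p = 2.66e-07). At neither probe did the groups overlap, and the sizes of the difference were far apart. In mNanog iPS the first probe averaged 12.31 and the second 11.46, so the first was 5.23 lower and the second 0.43 lower in hNanog iPS than in mNanog iPS (adjusted p = 2.11e-10 and 0.0431). Both probes were at background in the NS cells, which lack Nanog. The positions of the probes and whether they read human Nanog are not stated in the files, so no signal is assigned to the introduced or the endogenous gene.

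Of the other reprogramming factors, Pou5f1 was slightly higher and Sox2 and Klf4 slightly lower. Pou5f1, the POU-domain partner of Sox2, stood at 13.41, 13.36 and 13.17 in hNanog iPS and 13.17, 12.76 and 12.96 in ES at ILMN_1252910 (0.35, SE 0.11, adjusted p = 0.0321). The groups touch at 13.17. Its other probe, ILMN_1217100, gave 12.74, 12.77 and 12.93 in hNanog iPS and 12.40, 12.52 and 12.58 in ES (0.31, SE 0.091, adjusted p = 0.022). These calls were not firm: the first ended without hNanog iPS replicate 1 or 2 or ES replicate 2 or 3 (adjusted p = 0.0778 to 0.136), and the second without hNanog iPS replicate 3 or ES replicate 1 or 2 (adjusted p = 0.0502 to 0.0862). Within the brighter arrays Pou5f1 stood at adjusted p = 0.257 and 0.0699, and within the dimmer arrays at 0.236 and 0.141.

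Sox2, a factor of both pluripotent and neural stem cells, had 9.51, 9.28 and 9.32 in hNanog iPS and 9.83, 9.86 and 9.91 in ES at ILMN_2656102 (-0.50, SE 0.092, adjusted p = 0.0014). Every hNanog iPS array lay below every ES array there, while the difference at ILMN_1248711 was -0.36 and did not pass (adjusted p = 0.278). Klf4, a Krüppel-like factor of the naive network, was read by 3 probes. ILMN_1221264 gave 8.56, 8.69 and 8.69 in hNanog iPS and 9.11, 9.03 and 9.21 in ES (-0.47, SE 0.11, adjusted p = 0.00524). ILMN_1241903 differed by -0.43 (adjusted p = 0.0505), without overlap of the groups, and ILMN_2999439 by -0.11 (adjusted p = 0.718), so 1 of the 3 probes passed. The SE at ILMN_1241903 (0.15) pools the spread of all groups. There the standard deviation was 0.41 in NS, 0.057 in hNanog iPS and 0.045 in ES. Over 27 alternative fits, ILMN_1241903 gained the call in 11 and ILMN_1221264 lost it in 3. Myc was not detected on any of the 6 arrays (mean 4.83 in hNanog iPS and 4.82 in ES) and was not tested.

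**Figure D1:**
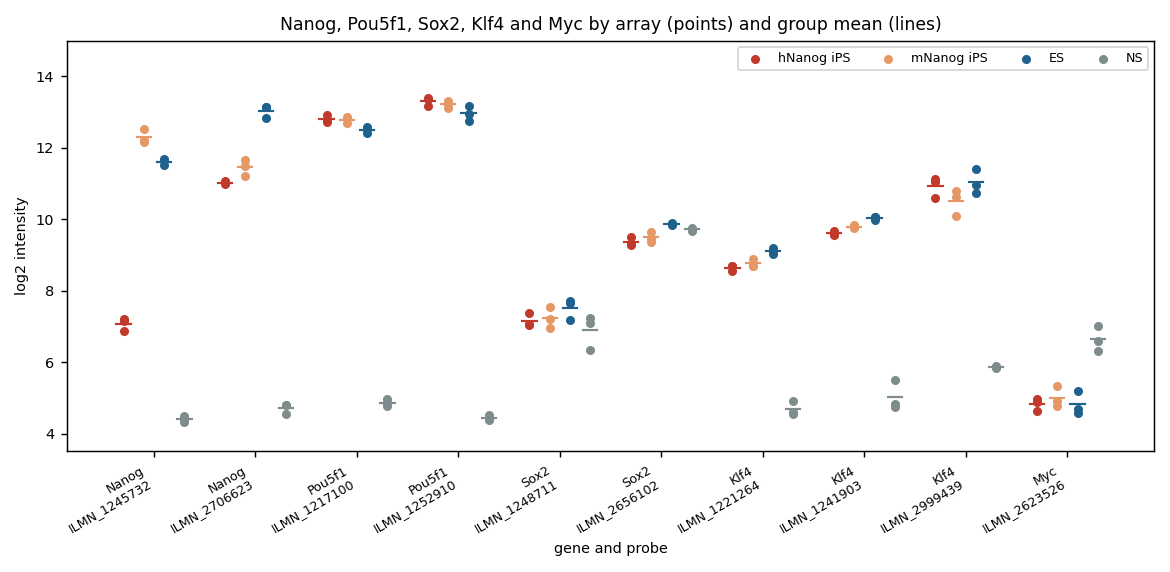
Log2 intensity of each probe of Nanog, Pou5f1, Sox2, Klf4 and Myc, with a point per array and a line at the group mean, for hNanog iPS, mNanog iPS, ES and NS (3 arrays each). Nanog at ILMN_1245732 averages 7.08 in hNanog iPS, 12.31 in mNanog iPS and 11.61 in ES, while Pou5f1, Sox2 and Klf4 lie within about 0.5 of ES in hNanog iPS.

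The genes that stood out as higher in hNanog iPS were of many kinds rather than of 1 lineage. P2rx7, an ATP-gated cation channel, had the largest rise among named genes, with 10.05, 9.85 and 10.10 in hNanog iPS and 5.25, 5.22 and 5.59 in ES at ILMN_3162824. It was not above background in ES, so it was at least 21.3-fold higher (4.65, SE 0.12, adjusted p = 1.03e-10). Where a group was at background, a log2 difference is the measured one and only the bound, given as "at least", limits the size. The bounds of the 4 P2rx7 probes ran from 1.43-fold to 21.3-fold. Pkd2l1, a cation channel of the polycystin family, had 10.57, 10.46 and 10.49 in hNanog iPS and 7.005, 7.13 and 7.02 in ES, a rise of 3.45 (SE 0.11). Non-overlap of the groups was a condition for naming the genes with the largest rises, so nothing is read from it. Grhl2, a transcription factor of epithelia, had 9.39, 9.43 and 9.42 in hNanog iPS and 6.35, 6.25 and 6.25 in ES (3.13, SE 0.09). Porcn, the acyltransferase that lipidates Wnt proteins, had 9.80, 9.88 and 9.91 in hNanog iPS and 6.89, 6.75 and 6.58 in ES (3.12, SE 0.1), and its second probe was at least 1.85-fold higher.

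Lmo2, a LIM-domain adaptor of blood transcription complexes, had 8.25, 8.27 and 8.11 in hNanog iPS and 4.82, 4.84 and 4.63 in ES, where it was at background, at least 6.155-fold higher (measured difference 3.45, SE 0.11, adjusted p = 6.83e-10). In mNanog iPS it was also at background (4.81), with a measured difference of 3.40 from hNanog iPS (adjusted p = 4.51e-09). Ephb1, an ephrin receptor detected on 1 of 3 mNanog iPS arrays and none of ES, had 7.41, 7.69 and 7.56 in hNanog iPS and 5.30, 4.81 and 4.87 in ES (at least 3.90-fold higher), and a measured difference of 2.35 from mNanog iPS (adjusted p = 1.73e-06). Of the 20 largest rises, 17 were also higher in mNanog iPS than in ES (adjusted p under 0.05). Both comparisons use the same ES arrays, so nothing is read from this count of 17. In the test of hNanog iPS against mNanog iPS 15 differed, against 15.4% of all tested probes (2327). That test and the one against ES use the same hNanog iPS arrays, so nothing is read from that count. P2rx7, Pkd2l1 and Grhl2 were lower in hNanog iPS than in mNanog iPS (by -0.65, -0.92 and -1.11), while Igsf21, Specc1, Hoxd4, Hoxd8 and Igfbp7 did not pass (adjusted p = 0.222 to 0.847).

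Of the rest of the 20, Unc45b, a myosin chaperone, rose by 3.13 (detected on 1 of 3 ES arrays). Plcd1, a phospholipase C, rose by 2.47 and Cpe, a prohormone carboxypeptidase, by 2.43. Others were at background in ES and have only bounds. Igsf21, a synaptic adhesion protein, was at least 3.91-fold higher, Specc1, a coiled-coil protein, at least 4.04-fold, Igfbp7, a secreted IGF-binding protein, at least 3.23-fold, and Nrxn2, a presynaptic adhesion protein, at least 2.53-fold. The homeobox genes Hoxd4 and Hoxd8 were at background in ES and NS and at least 2.85-fold and 4.135-fold higher in hNanog iPS. AF067061 and Gm5662, at background in mNanog iPS, ES and NS, were at least 3.46-fold and 3.67-fold higher. Tnfrsf22, a decoy receptor for TRAIL, rose by 2.35 at ILMN_1215416, but its other probes differed by -0.47 (adjusted p = 0.00329) and -0.22 (adjusted p = 0.336), so its direction depends on the probe.

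Genes lower in hNanog iPS included several that were at background there. Lrrc15, a leucine-rich repeat membrane protein, had the largest difference, with 4.62, 4.77 and 4.65 in hNanog iPS and 10.11, 9.97 and 10.08 in ES, at least 23.3-fold lower (-5.38, SE 0.081, adjusted p = 1.48e-12). Krt42, a type I keratin, had 4.68, 4.73 and 4.62 in hNanog iPS and 9.31, 9.58 and 9.49 in ES at ILMN_2697643, at least 15.4-fold lower. All 3 of its probes were at background in hNanog iPS, with bounds of 4.02-fold to 15.4-fold. Slit2, a secreted guidance ligand, had 5.40, 5.29 and 5.32 in hNanog iPS and 9.34, 9.41 and 9.30 in ES. It was at background in hNanog iPS and at least 14.25-fold lower.

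Dppa3, an oocyte-derived protein that guards methylation in the early embryo, had 4.47, 4.39 and 4.47 in hNanog iPS and 8.43, 8.64 and 8.65 in ES. It was not above background in any hNanog iPS array, and was at least 8.33-fold lower (-4.13, SE 0.11, adjusted p = 1.04e-10). In mNanog iPS it was at background too (4.64), and the iPS groups did not differ in the test (-0.19, adjusted p = 0.249). Mbd2, which binds methylated CpG, had 7.27, 7.13 and 7.32 in hNanog iPS and 10.001, 9.93 and 9.92 in ES (-2.71, SE 0.094). Smad3, the transducer of Nodal and activin signals, had 6.51, 6.73 and 6.75 in hNanog iPS and 9.24, 9.56 and 9.68 in ES (-2.83, SE 0.12), and its second probe fell by 1.62. Every hNanog iPS array lay below every ES array for these genes, which was a condition for naming the largest falls.

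Tdrd12, a tudor-domain protein of the piRNA pathway in germ cells, had 7.03, 6.80 and 7.11 in hNanog iPS and 10.04, 10.15 and 10.13 in ES (-3.13, SE 0.2, adjusted p = 2.46e-07). Rhox5, an X-linked homeobox gene of the germline and placenta, had 8.93, 8.67 and 8.63 in hNanog iPS and 11.82, 11.65 and 11.63 in ES (-2.95, SE 0.16, adjusted p = 6.38e-08). The promoters of these germline genes are shown because genes of this class are known to be silenced by DNA methylation at promoter CpGs; methylation was not measured here. They are given 5′ to 3′ from RefSeq on GRCm38.p6, 250 bases before to 50 after a transcript start, with each CG in capitals. The Tdrd12 window is chr7:35537666-35537965 on the minus strand and that of Rhox5 is chrX:37754358-37754657 on the plus strand.
Tdrd12: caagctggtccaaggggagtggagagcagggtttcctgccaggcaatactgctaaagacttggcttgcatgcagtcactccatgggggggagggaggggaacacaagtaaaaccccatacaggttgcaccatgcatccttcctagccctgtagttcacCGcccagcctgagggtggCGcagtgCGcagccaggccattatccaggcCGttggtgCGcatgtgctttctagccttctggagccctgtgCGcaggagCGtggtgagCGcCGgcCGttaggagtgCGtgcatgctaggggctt
Rhox5: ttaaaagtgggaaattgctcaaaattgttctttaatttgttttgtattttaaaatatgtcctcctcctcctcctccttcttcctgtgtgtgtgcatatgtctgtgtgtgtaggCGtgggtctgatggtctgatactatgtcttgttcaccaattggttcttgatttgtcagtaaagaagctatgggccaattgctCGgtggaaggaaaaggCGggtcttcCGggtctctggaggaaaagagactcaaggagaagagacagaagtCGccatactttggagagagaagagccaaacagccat
The Tdrd12 window holds 11 CG and the Rhox5 window 5 CG. At least as many stand in 41.4% and 62% of the 32851 promoter windows of this length, which have a median of 7.

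The other large falls were spread over signalling, secreted and neural genes. The X-linked gene 4933402E13Rik was at background in hNanog iPS and at least 6.80-fold lower. Wfdc2, a secreted whey-acidic-protein domain factor, fell by 3.12. Ak4, a mitochondrial adenylate kinase, fell by 2.40, and Dner, a neuronal Notch ligand at background in hNanog iPS, was at least 4.80-fold lower. Mobp, a myelin-associated protein, fell at 4 probes, at ILMN_2547305 at least 4.985-fold to background, and Ap3b2, a neuronal vesicle adaptor, differed by -2.42 and -1.87 at 2 probes that passed, and by -0.40 at another (adjusted p = 0.5). The kallikreins Klk1, Klk1b5 and Klk1b26 were at background in hNanog iPS and at least 2.9-fold, 2.58-fold and 2.66-fold lower; probes of these close paralogs could share targets. Of the 20 largest falls, 18 were also lower in mNanog iPS than in ES (adjusted p under 0.05). The ES arrays serve both iPS groups, so nothing is read from that count. The differences of the iPS groups from ES are shown side by side only.

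**Figure D2:**
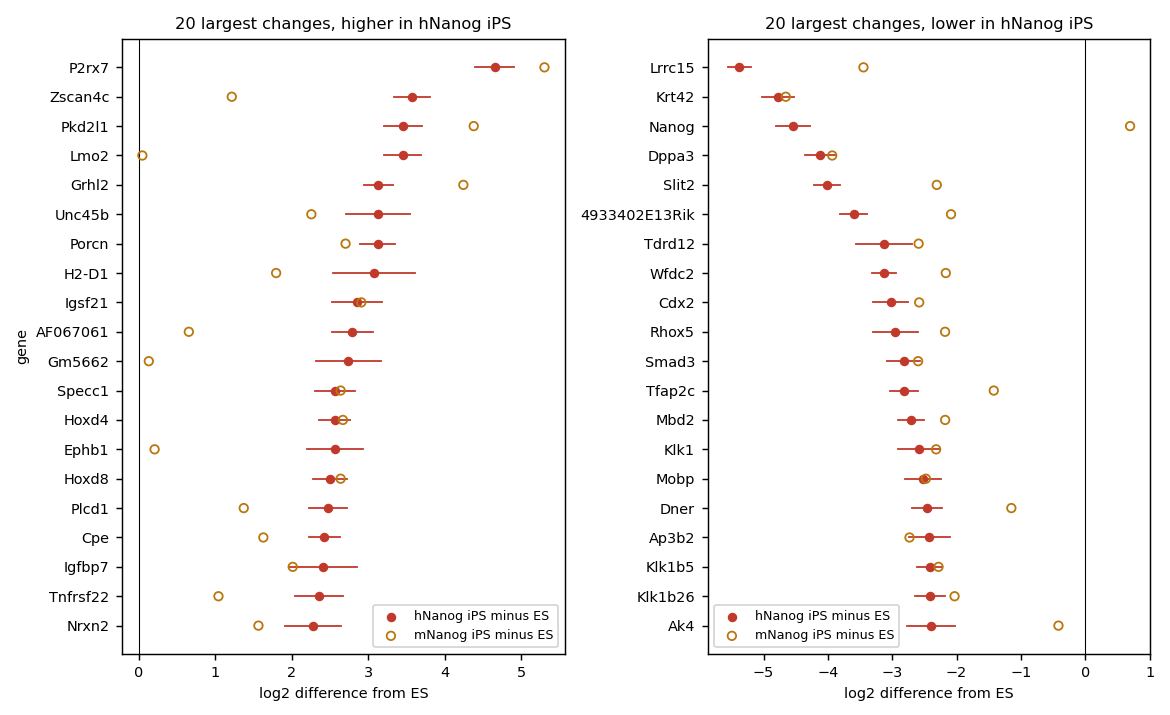
Log2 difference from ES of the 20 named genes with the largest rise (left) and fall (right), as filled points with 95% confidence intervals for hNanog iPS and open circles for mNanog iPS (3 arrays a group). P2rx7 is highest at 4.65 and Lrrc15 lowest at -5.38, while Lmo2 and Nanog have open circles far from the filled points; for genes at background in a group the points are measured differences, not bounds.

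All 18 measured core pluripotency genes and 15 of 16 measured naive genes were detected on all 6 arrays, and some of them fell. Dppa3, given above, was at background in hNanog iPS. Nanog, lower at both of its probes (-4.54 and -2.01), is in neither list, so the counts leave it out. Of 16 measured naive genes (of 21 listed), 8 were lower, 1 was higher and 7 did not pass, with a median change of -0.20 against -0.02 over all genes. Of the 8, 3 were lower within the dimmer arrays and 1 with median scaling. Apart from Dppa3, Nr5a2, an orphan nuclear receptor that can replace Pou5f1 in reprogramming, had 9.95, 9.89 and 9.83 in hNanog iPS and 10.84, 10.63 and 10.81 in ES (-0.87, adjusted p = 0.000391). Prdm14, a repressor of FGF signalling and DNA methylation genes, had 8.22, 8.19 and 8.24 in hNanog iPS and 8.83, 8.97 and 8.97 in ES (-0.71, adjusted p = 0.000293). Each lay below ES on every array. Gbx2, a homeobox target of LIF, was the member that rose, with 11.37, 11.36 and 11.52 in hNanog iPS and 10.42, 10.59 and 10.61 in ES (0.88, adjusted p = 0.000888). Esrrb, Klf2, Zfp42 and Tfcp2l1, further members of the naive network, differed by 0.0037, 0.07, 0.06 and 0.16 and did not pass.

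Of 18 measured core pluripotency genes, 2 rose, 6 fell and 10 did not pass (median -0.06), and within the dimmer arrays 1 fell and with median scaling 0. Dppa2, a chromatin factor of the early embryo, had 7.69, 7.68 and 7.52 in hNanog iPS and 6.93, 6.12 and 6.15 in ES (1.23, SE 0.19, adjusted p = 0.000335). Fgf4, the ligand that drives exit from pluripotency, had 7.69, 7.52 and 7.59 in hNanog iPS and 8.32, 8.36 and 8.23 in ES (-0.70, adjusted p = 0.000144). Fbxo15, a Pou5f1 target, fell by 0.41. Mybl2, a cell cycle transcription factor, fell by 0.55 at 1 probe, while its others differed by -0.35 and 0.13 and did not pass. The count of risers was 1 without hNanog iPS replicate 1 or 2 or ES replicate 2 or 3, since the rise of Pou5f1 was then lost. Among 17 protein partners of Nanog, 3 changed: Pou5f1 as above, Sox2, and Sall1, a zinc finger protein, which fell by 0.43.

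Of 22 genes of the 2-cell embryo, 6 were measured: 4 were higher, 1 was lower and 1 did not pass. Zscan4c, a zinc finger protein linked to telomere maintenance, had 8.16, 8.21 and 8.14 in hNanog iPS and 4.58, 4.57 and 4.66 in ES, at least 5.99-fold higher (3.57, SE 0.11, adjusted p = 3.29e-10). Gm428 had 6.86, 6.88 and 6.87 in hNanog iPS and 4.79, 4.94 and 4.70 in ES, at least 2.43-fold higher. Tcstv1 and Tcstv3, paralogs of the 2-cell stage whose probes could share targets, were at least 1.92-fold and 1.59-fold higher. These 4 genes were detected on all 3 hNanog iPS arrays and on no ES array, so hNanog iPS alone carried them past the detection rule, and their count supports nothing. In mNanog iPS the levels were lower: 5.82 for Zscan4c (detected on 2 of 3 arrays), 4.85 for Gm428, 5.10 for Tcstv1 and 4.53 for Tcstv3, with measured differences from hNanog iPS of 2.35, 2.02, 1.43 and 1.73 (adjusted p of at most 1.26e-05). Gm428, Tcstv1 and Tcstv3 were at background in mNanog iPS. Eif1a, a translation initiation factor, fell by 0.42 and Zscan10, a zinc finger protein of ES cells, differed by -0.11 (adjusted p = 0.386). The bulk values cannot tell more cells in such a state from more RNA per cell.

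Zscan4c belongs to a tandem family whose copies are nearly identical, so its probe may read several of them. Its promoter is shown as that of the gene with the largest rise in the 2-cell list, in the same notation as above, at chr7:11005495-11005794 on the plus strand of GRCm38.p6.
Zscan4c: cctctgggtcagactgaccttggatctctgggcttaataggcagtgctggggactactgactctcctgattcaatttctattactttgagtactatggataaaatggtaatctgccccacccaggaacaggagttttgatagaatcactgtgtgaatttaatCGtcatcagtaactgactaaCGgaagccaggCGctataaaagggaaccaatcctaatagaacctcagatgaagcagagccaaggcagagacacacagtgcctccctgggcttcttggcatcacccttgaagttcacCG
It holds 4 CG, and at least as many stand in 68.6% of promoter windows.

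Of 8 measured genes of the primed, post-implantation epiblast (17 listed), 5 fell, 1 rose and 2 did not pass (median -1.14). With median scaling 2 fell. Otx2, the homeobox factor of the primed state, had 6.54, 6.28 and 6.26 in hNanog iPS and 8.50, 8.33 and 8.10 in ES (-1.95, SE 0.16, adjusted p = 2.27e-06). Lefty2, a secreted Nodal antagonist, had 8.90, 8.65 and 8.74 in hNanog iPS and 10.49, 10.31 and 10.36 in ES (-1.62, SE 0.1), and Lefty1 fell by 1.05. Each separated the groups fully. Cldn6, an epithelial claudin, fell by 1.24 and Zic2, a zinc finger factor, by 1.23. In hNanog iPS, Otx2, Lefty2, Lefty1 and Cldn6 were nonetheless 0.93, 0.49, 0.66 and 0.50 higher than in mNanog iPS (adjusted p = 0.00103 to 0.00709). Dnmt3b was the member that rose (0.30, adjusted p = 0.0413), a call lost without any single array of hNanog iPS or ES or without mNanog iPS replicate 1 or 2.

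Of 13 measured genes of the Nodal pathway, 4 rose and 3 fell (median 0.10), and with median scaling 1 rose and 1 fell. The largest fall was -1.62 and the largest rise 1.47, with 2 falls and 1 rise of at least 2-fold. Smad3, which differed by -2.83, is not in this list. Nodal itself differed by 0.16 and its coreceptor Tdgf1 by 0.05, neither past the threshold. The receptor Acvr1b rose by 0.77, and the BMP branch held further rises: Bmp4, a ligand that supports self-renewal through Id genes, had 10.30, 10.48 and 10.47 in hNanog iPS and 8.997, 8.95 and 8.91 in ES (1.47, SE 0.1, adjusted p = 5.4e-07), and Id3 rose by 0.75. In the mesoderm list Gsc, a homeobox gene of the organizer, had 6.38, 6.27 and 6.23 in hNanog iPS and 8.41, 8.57 and 8.75 in ES (-2.29, SE 0.1, adjusted p = 1.1e-08).

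Trophectoderm genes moved in both directions. Of 9 measured members of 21, 5 fell, 3 rose and 1 did not pass, with a median of -1.80, or -1.49 with genes at background set to their bound. Cdx2, the homeobox factor of the trophectoderm, had 4.78, 4.79 and 4.74 in hNanog iPS and 7.93, 7.58 and 7.89 in ES, at least 4.87-fold lower (-3.03, SE 0.13, adjusted p = 7.43e-09). Tfap2c, an AP-2 factor of trophoblast and germ cells, had 8.36, 8.54 and 8.66 in hNanog iPS and 11.32, 11.21 and 11.38 in ES at ILMN_2783225 (-2.78, SE 0.09), and its 3 probes fell by 1.82 to 2.82. Tfap2a fell by 2.21, and Fgfr2, an FGF receptor of the trophectoderm and primitive endoderm, by 1.80. Rhox9 was at least 2.82-fold lower. Cdx2 and Rhox9 were detected on no hNanog iPS array and passed the rule through ES. Krt8, an epithelial keratin, rose by 0.97, Elf3, an epithelial ETS factor, by 0.65 and Tead4, an activator of Cdx2, by 0.52; within the dimmer arrays and with median scaling 1 rose. Tfap2a, Tfap2c and Fgfr2 were lower in hNanog iPS than in mNanog iPS (-1.72, -1.40 and -0.65, adjusted p of at most 0.0127). Cdx2 was at background in both iPS groups. Dab2, an endocytic adaptor of primitive endoderm, had 6.49, 6.79 and 6.79 in hNanog iPS and was at background in ES (at least 2.14-fold higher). Lama1, a laminin of the same lineage, fell by 0.50, a call lost without hNanog iPS replicate 1 or 2 or ES replicate 2 or 3 (adjusted p = 0.0726 to 0.106), within the brighter or dimmer arrays and with median scaling.

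**Figure D3:**
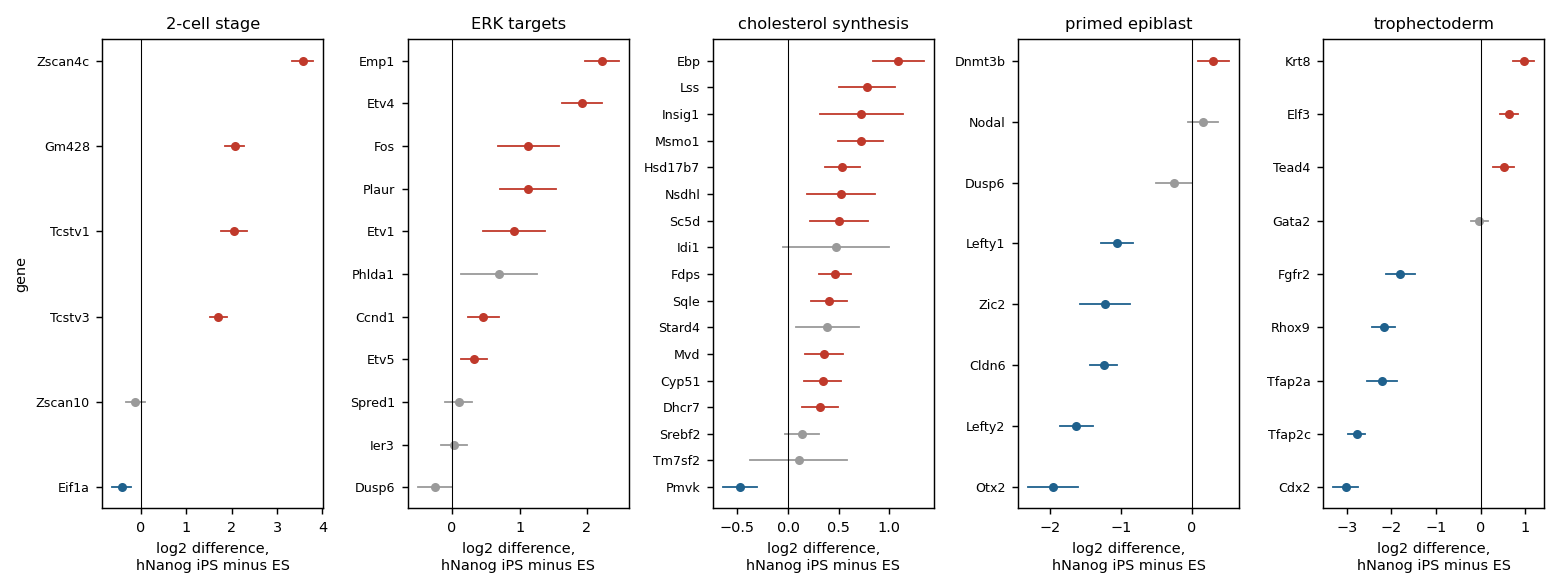
Log2 difference of hNanog iPS minus ES for each measured member of 5 lists, as points with 95% confidence intervals, in red where higher and blue where lower past an adjusted p of 0.05 and grey otherwise (3 arrays a group). Emp1 leads the ERK targets at 2.22 and Ebp the cholesterol genes at 1.09, and Otx2 is lowest of the primed genes; for genes at background in a group, such as Zscan4c and Cdx2, the points are measured differences, not bounds.

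Several targets of ERK signalling were higher in hNanog iPS; both groups were grown with the MEK inhibitor. Of 11 measured targets, 7 rose, none fell and 4 did not pass (median 0.70, or 0.55 with Fos at its bound). Of these, 3 rose within the dimmer arrays and 5 with median scaling. Emp1, a membrane protein induced by growth factors, had 10.69, 10.72 and 10.86 in hNanog iPS and 8.34, 8.68 and 8.60 in ES (2.22, SE 0.11, adjusted p = 4.44e-08). Etv4, an ETS factor downstream of FGF, had 8.03, 8.18 and 8.08 in hNanog iPS and 6.17, 5.87 and 6.47 in ES (1.92, SE 0.14, adjusted p = 7.3e-07). For both genes the arrays of the groups lay well apart. Fos, an immediate early gene, had 6.28, 6.11 and 6.03 in hNanog iPS and was not above background in ES, at least 1.47-fold higher. Plaur and Etv1 rose by 1.13 and 0.91, and Dusp6, a phosphatase that feeds back on ERK, differed by -0.255 (adjusted p = 0.122). Set against mNanog iPS, Emp1, Etv4 and Fos were lower in hNanog iPS (-0.60, -0.99 and -0.89, adjusted p = 0.00374, 0.000449 and 0.013).

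Of 17 measured cholesterol synthesis genes, 12 rose by small amounts, 1 fell and 4 did not pass (median 0.46), against 16.7% of all genes in each direction. Ebp, a sterol isomerase, had 11.04, 10.79 and 10.84 in hNanog iPS and 9.90, 9.84 and 9.65 in ES (1.09, SE 0.11, adjusted p = 1.76e-05). Lss, lanosterol synthase, had 10.45, 10.44 and 10.40 in hNanog iPS and 9.66, 9.61 and 9.69 in ES (0.78, SE 0.13, adjusted p = 0.000546). No array of hNanog iPS fell to the ES range at either gene. Msmo1, a sterol oxidase, and Insig1, a sterol sensor, rose by 0.72 each, though 1 of 3 Insig1 probes differed by 0.14 and did not pass. Pmvk, phosphomevalonate kinase, fell by 0.47. The count of risers was 13 with brightness as a block, 10 within the brighter arrays and 4 within the dimmer arrays, and 1 with median scaling, while the median stayed above that of all tested probes (0.62 against 0.20). Lss, Insig1 and Msmo1 were also higher than in mNanog iPS (adjusted p = 0.0107 to 0.0364). Of 10 fatty acid synthesis genes 1 rose, Elovl6, an elongase (0.35).

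In the list of class I and interferon genes some members rose and others fell. H2-D1, a class I heavy chain, had 8.53, 8.37 and 8.55 in hNanog iPS and 6.39, 6.34 and 6.54 in ES at ILMN_2462745 (2.06, SE 0.14, adjusted p = 4.33e-07), and was at least 4.65-fold higher at ILMN_2476267. B2m, the class I light chain, had 11.66, 11.68 and 11.74 in hNanog iPS and 10.08, 9.99 and 9.93 in ES (1.69, SE 0.075, adjusted p = 1.1e-08). The groups did not overlap at any of these probes. Psmb9, an immunoproteasome subunit, was at background in ES and at least 1.595-fold higher. H2-T23, a nonclassical class I gene, was lower (-1.92, SE 0.24), at 5.601, 5.59 and 4.599 in hNanog iPS and 7.11, 7.26 and 7.19 in ES. Ifitm1, a small membrane protein that interferon induces, had 12.30, 12.38 and 12.33 in hNanog iPS and 13.56, 13.44 and 13.55 in ES (-1.18). In all, 4 of 13 genes rose and 5 fell (median -0.27), 3 and 2 with median scaling, and class I probes could share targets among paralogs.

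Of 22 measured LIF and STAT3 genes, 8 fell, 2 rose and 12 did not pass (median -0.11). Within the dimmer arrays 3 fell and with median scaling 1, where the median was 0.11 against 0.20 over all tested probes.  The receptor Lifr, its partner Il6st, Stat3 and Socs3 were among those that did not pass. Cish, a feedback inhibitor of cytokine signalling, fell by 1.21 and Pim1, a STAT3-induced kinase, by 1.05. Jak1, the kinase of the receptor, rose by 0.61. Among 8 genes listed as Wnt targets, 3 rose and 3 fell, and with median scaling 0 and 2. Beside Cdx2, Notum, a secreted Wnt deacylase, fell at all 3 probes by 1.30 to 1.52. Tcf3 fell by 0.89 at 1 probe and differed by -0.28 at another (adjusted p = 0.226). This gene on chromosome 10 encodes an E protein, not the Wnt-pathway factor once called by the same name (Tcf7l1). It is nonetheless counted among the 8 genes and the 3 falls. Cdx1 rose by 0.58, and Axin2 differed by -0.23 (adjusted p = 0.0813).

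Imprinted genes and the DNA methylation machinery held single large differences. Of 14 imprinted genes, 4 rose and 5 fell (median -0.07), and without hNanog iPS replicate 2 or 3 or ES replicate 3 the count of falls was 3. With median scaling 1 rose and 2 fell. Zdbf2, a paternally expressed gene, had 5.70, 5.83 and 5.505 in hNanog iPS and 7.995, 7.94 and 7.82 in ES (-2.24, SE 0.1, adjusted p = 1.48e-08). Mest, a paternally expressed hydrolase, had 6.24, 6.21 and 5.75 in hNanog iPS and 7.66, 7.91 and 7.49 in ES (-1.62, SE 0.15). Gnas, the stimulatory G protein subunit, rose by 1.56, Igf2, a paternally expressed growth factor, by 0.75, and Igf2r, its maternally expressed receptor, by 0.59. Zdbf2 and Mest were 2.53 and 1.25 lower in hNanog iPS than in mNanog iPS (adjusted p = 1.57e-08 and 0.000127).

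Of 11 genes of the DNA methylation machinery, Dnmt3l and Dnmt3b rose and Mbd2 fell. The Dnmt3b call was not firm, as given above, and its second probe differed by 0.17 (adjusted p = 0.378). Dnmt3l, the cofactor of de novo methylation, had 10.80, 10.71 and 10.85 in hNanog iPS and 9.10, 9.42 and 9.48 in ES (1.46, SE 0.1, adjusted p = 4.74e-07), and was 1.54 lower than in mNanog iPS (adjusted p = 8.05e-07). Dnmt1, Uhrf1 and Tet1 did not pass. Among 9 germline genes known to respond to methylation, 4 rose and 3 fell: Dppa3, Rhox5 and Rhox9 were lower, while Tex13b rose by 1.73, Xlr4a by 1.19, Dazl by 0.81 and Tuba3a by 0.54. Dppa3 and Rhox9 were at background in hNanog iPS and passed the detection rule through ES alone. Xlr4a was far below its mNanog iPS level (7.95, 8.08 and 8.09 in hNanog iPS, mean 11.33 in mNanog iPS; -3.29, adjusted p = 3.12e-10). Cbx8, a Polycomb subunit, had 7.19, 7.08 and 6.99 in hNanog iPS and 5.96, 5.66 and 5.45 in ES (1.39), and 15 of 17 Polycomb genes did not pass.

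Genes of differentiated and neural cells gave mixed changes. Vim, an intermediate filament of neural stem and mesenchymal cells, had 8.66, 8.62 and 8.77 in hNanog iPS and 10.16, 10.27 and 10.34 in ES (-1.57, SE 0.083), and Sox21 fell by 1.07. Nfix, a nuclear factor of neural stem cells, had 6.78, 6.98 and 6.91 in hNanog iPS, was at background in ES (at least 2.46-fold higher) and was at 11.05 in NS. Nefm, a neurofilament subunit, rose by 2.13 and Stmn3, a tubulin-binding protein of neurons, by 0.99. Of the 28 neural stem genes listed, 9 were measured, of which Vim, Sox21 and Mt3 fell and Nfix rose. Among matrix genes Col18a1 fell by 1.62 and Lama5 and Fstl1 rose by 0.91 and 0.90, and of 17 measured 3 rose and 5 fell; without hNanog iPS replicate 1 or 2 or ES replicate 2 or 3, 3 fell, and with median scaling 1. Snai1, a repressor of E-cadherin, rose by 1.26, while Ccn2, a YAP target, fell by 1.05.

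Genes of replication and the respiratory chain had few calls, against 16.7% of all genes higher and 16.7% lower. Ribosomal genes had no rises, and their share of falls was not far below that of all genes. Of 23 replication and mitosis genes, Gins2 rose (0.42), a call lost without hNanog iPS replicate 2. Mcm6 fell by 0.28 at each of 2 probes and differed by 0.10 at another (adjusted p = 0.815); at the probe read, the call was lost on leaving out any 1 of 7 arrays (adjusted p = 0.0562 to 0.163). Of 38 respiratory chain genes 1 fell (Uqcrq, -0.60), and of 50 cytosolic ribosomal protein genes 6 fell, by 0.87 at most (Rps15a), with 2 falls within the dimmer arrays and 0 with median scaling. In glycolysis, Slc2a1, the main glucose transporter, had 11.19, 11.07 and 11.07 in hNanog iPS and 12.09, 12.21 and 12.14 in ES (-1.04, SE 0.1), Pfkm rose by 0.98 and Egln3, an oxygen sensor at background in ES, was at least 1.43-fold higher. Of 16 genes of G1 control, 5 rose and 2 fell, among them Cdkn1a, an inhibitor of cyclin-dependent kinases (0.48), and Cdkn2c (0.68). Of 14 p53 targets 4 rose and 7 fell, by 0.67 at most, and at Tnfrsf10b the probes disagreed (-0.67 and 0.95). Of 21 genes of the ATF4 response, 3 rose, Nupr1, Cebpb and Ddit3 (0.87, 0.74 and 0.72), and 7 fell, Chac1 most (-0.86); without ES replicate 3, 4 fell. With median scaling none of the G1 and p53 genes passed, and of the ATF4 genes 1 rose and 0 fell. Within the dimmer arrays 0 of the G1 and 0 of the p53 genes rose, and 2, 1 and 1 of the G1, p53 and ATF4 genes fell. The Y-linked Eif2s3y, a translation factor subunit, had 8.43, 8.47 and 8.29 in hNanog iPS and 10.63, 10.35 and 10.03 in ES (-1.94), and Uty fell by 0.88.

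**Figure D4:**
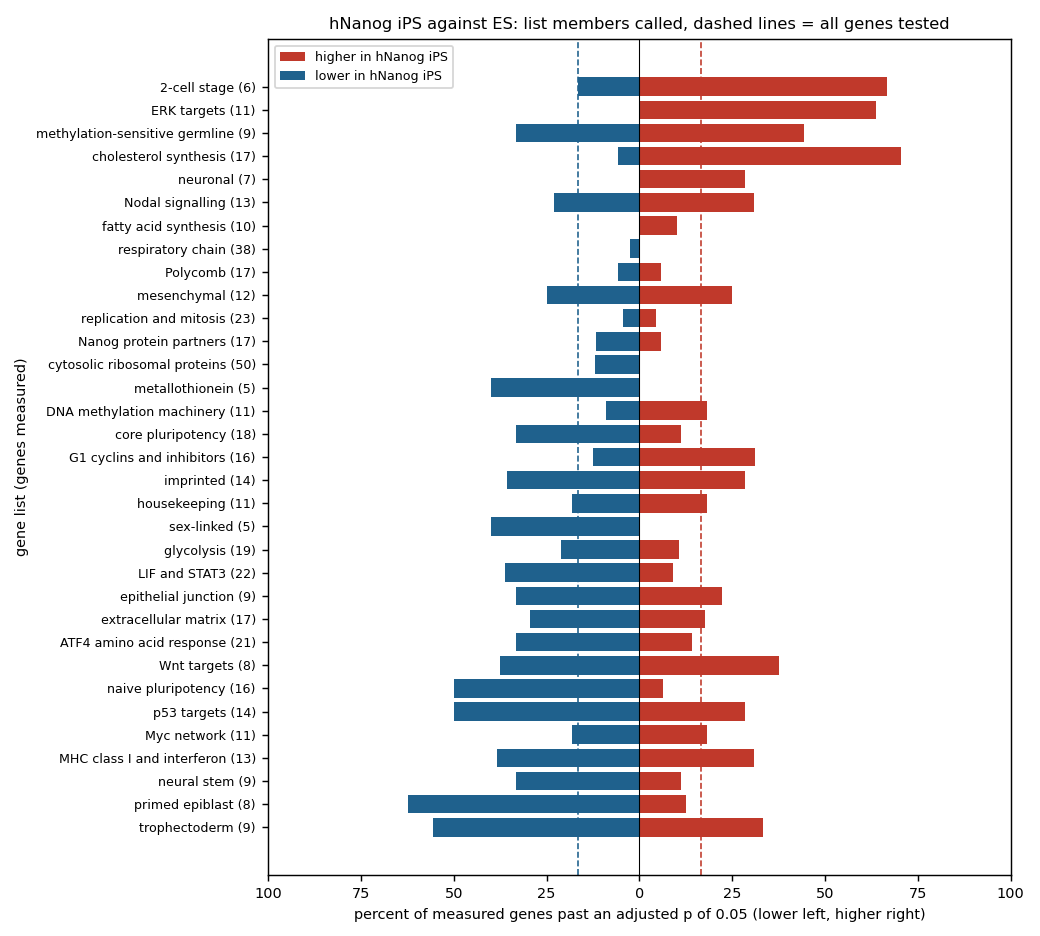
Percent of the measured genes of each list that were higher (right, red) or lower (left, blue) in hNanog iPS than in ES at an adjusted p under 0.05, for lists with at least 5 measured genes (number in parentheses), ordered by median change; dashed lines mark all genes tested (16.7% each way). The shares are 12 of 17 higher for cholesterol synthesis, 7 of 11 higher for ERK targets and 5 of 8 lower for primed epiblast. The 4 higher 2-cell genes and 2 of the 5 lower trophectoderm genes passed the detection rule through 1 group alone, so their bars support nothing. Such genes stand in other bars too, and their part supports nothing: 2 in methylation-sensitive germline and 1 from each group in neural stem. ERK targets, naive pluripotency, Wnt targets, metallothionein, glycolysis and MHC class I and interferon hold 1 each. The Wnt bar also counts the E protein gene Tcf3 as a fall.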

How the data were processed

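RNA from 12 samples of cultured cells was prepared with a TotalPrep kit and hybridised to bead arrays of Illumina, per the labels. As deposited, the signal table holds linear intensity for 45281 probes on each array, with no background correction or normalization by the authors, and beside each a detection p-value, which in the deposited file steps in units of 1 in 936. They also deposited a processed table, taken here as log2 values, for the 20513 probes that at least 1 array detected (p-value under 0.01). Its 12 columns share their quantiles (median 7.74, maximum 15.33), while its log base and background method are unstated. Gene symbols come from GEO's platform annotation, matched through gene IDs, and 13103 tested probes had 1 symbol, 5 several and 2029 none.

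The software was R 4.3.3 with limma 3.58.1. Background was estimated through the detection p-values by neqc (offset 16), which then applied quantile normalization across the 12 arrays. A linear model with 4 group means and eBayes was fitted to the 15137 probes kept, with Benjamini-Hochberg adjustment over all of them and a threshold of 0.05. The hNanog iPS minus mNanog iPS contrast of the same fit tests whether the difference from ES differs between the iPS groups. Values are log2 intensities, differences have standard errors (SE), and the number of arrays limits the precision. A probe detected on none of the 3 arrays of a group has only a bound there, given as "at least N-fold" against the lowest detected level on each array. Genes in lists were read from the tested probe with the highest mean over the 6 arrays, and levels of different probes were not compared.

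Named genes were Nanog, Pou5f1, Sox2, Klf4 and Myc, the top 20 rises and top 20 falls among probes with a symbol that passed the test, had no overlap between hNanog iPS and ES and were detected on all 3 arrays of the higher group, and up to 5 changed members of each list. Genes outside this rule (Elf3, Tead4, Dazl, Tuba3a and Pmvk) complete a list's count and were picked with their values in view. Members and lists were chosen with earlier results of these data known. Alternatives covered background, normalization, filter, the processed table, test, blocks and leaving out each array. No slide is named in the labels, so a slide block was not run.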

Additional observations from a re-analysis of the deposited data

Results flagged for a closer look

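The difference from ES was of another size in hNanog iPS than in mNanog iPS for 16 of 48 probes of the factors and of the genes with the largest changes, by at least 1 log2 unit in limma's hNanog iPS minus mNanog iPS contrast (adjusted p under 0.05). A further 12 of the 28 probes past the threshold differed by less, and 20 did not pass. Over all tested probes 15.4% passed; the 48 were chosen on the same hNanog iPS arrays, so nothing is read from their count. The hNanog iPS level was below the mNanog iPS level at Nanog ILMN_1245732 (-5.23), Ak4 (-1.98), Lrrc15 (-1.93), Slit2 (-1.71), 4933402E13Rik (-1.51), Tfap2c ILMN_2783226 (-1.40), Dner (-1.31) and Grhl2 (-1.11). It was above it at Lmo2 (3.40), Gm5662 (2.61), Ephb1 (2.35), Zscan4c (2.35), AF067061 (2.14), Tnfrsf22 (1.31), H2-D1 ILMN_2476267 (1.28) and Plcd1 (1.10). Lmo2, Gm5662 and AF067061 were detected on every hNanog iPS array and on no mNanog iPS or ES array, and Lrrc15, Slit2, 4933402E13Rik and Dner on every mNanog iPS and ES array and on no hNanog iPS array. For these 7 the values are measured differences against a group at background, not sizes.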

How the results depend on the processing

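The count of probes that differed between hNanog iPS and ES (4595) moved by over 1.5 times under median scaling (814) and within the dimmer arrays (1737). For hNanog iPS against mNanog iPS (2327) it moved under median scaling (224), with array weights (4229) and within the dimmer arrays (424). The dimmer arrays are fewer samples by construction; for the others the cause was not tested. Higher calls made up 52.2% of the second count, against 63.4% with median scaling, 41% with cyclic loess and 45.4% without the filter. With 1 array left out the counts ranged from 3586 (without hNanog iPS replicate 1) to 4919 (without NS replicate 2), and from 1581 (without hNanog iPS replicate 2) to 2576 (without NS replicate 2). Deviations of same-numbered hNanog iPS and ES arrays correlated at 0.379, -0.233 and 0.370, so the replicate numbers were not taken to pair samples; with the replicate block the counts were 4169 and 1921. The 40 genes with the largest changes kept their direction and their call under every alternative in which they could be tested. They were chosen on the same arrays for large, called changes without overlap, so nothing is read from that. Over 167 named probes and 27 alternatives, 4230 of 4455 values kept direction and side of the threshold, 209 lost the call, 12 gained it and 4 changed sign. Those 4 were Klf4 ILMN_2999439, which did not pass in any of them: 0.10 with median scaling, 0.022 with array weights, 0.049 without hNanog iPS replicate 3 and 0.074 without ES replicate 1, in a range with 1 array left out of -0.26 to 0.074. Of 74 list counts, 19 moved by over 1.5 times with 1 array left out and 44 under median scaling. A slide block was not run, since no slide is named. Signal near background limits what can be said of dim probes.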

Other observations

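Some gene families were chosen after their values were seen, and probes of close paralogs could share targets. Members at background in 1 group passed the detection rule through the other, so no count over a family supports anything. Of 5 mu-class glutathione S-transferases on chromosome 3, all detected in both groups, 4 fell (Gstm6 -1.42 and Gstm1 -1.38), against 16.7% of all genes. Hoxd4, Hoxd8 and Hoxd9 of the Hoxd cluster on chromosome 2, which patterns the body axis, were at background in ES and NS and at least 2.85-fold, 4.135-fold and 2.03-fold higher in hNanog iPS. Of 4 other Hox genes Hoxa7 rose (1.07) and 3 did not pass. The kallikreins, secreted serine proteases, included Klk8, detected in both groups, which fell by 2.03, while Klk1, Klk1b5, Klk1b26 and Klk1b27 were at background in hNanog iPS and at least 2.28-fold to 2.9-fold lower.

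Pramel genes, a family expressed in early embryos and germ cells, moved in both directions. Pramel14 and Pramel30 rose by 1.51 and 1.62 and differed by -1.55 and -1.45 from mNanog iPS, and Pramel12 fell by 1.58. Pramel16, Pramel20, Pramel31 and Pramel37 were at background in mNanog iPS and ES and at least 1.54-fold to 1.95-fold higher in hNanog iPS than in ES. Of the macroH2A histone variants, Macroh2a1 fell by 1.63 and Macroh2a2 rose by 1.11.

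By chromosome, 26.9% of 286 genes on chromosome 14 were higher and 12.2% lower (median 0.104), against 16.7% each way over all genes. Chromosome 14 was picked as the one with the highest share of rises, and others also departed from 16.7%. On X, 23.4% of 265 genes were higher and 16.6% lower, and on chromosome 7, 13.3% of 705 were higher and 20% lower. The probe with the largest change has no gene name here: ILMN_2476405 averaged 12.58 in hNanog iPS, 12.78 in mNanog iPS, 5.19 in ES and 13.00 in NS, a rise over ES of at least 127.5-fold, since no ES array detected it. ILMN_2923874, also unnamed, averaged 4.39 in hNanog iPS, 10.04 in mNanog iPS and 8.76 in ES.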
